A study of Mus musculus with 2 samples.

Results

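Oxidative phosphorylation is carried out by 5 protein complexes of the inner mitochondrial membrane, and the nuclear genes of complexes I, III, IV and V were followed here through the cells of neonatal mouse tendon. Members were all gene symbols that begin with Nduf (complex I), Uqcr (complex III), Cox4i, Cox5, Cox6, Cox7 or Cox8 (complex IV) or Atp5 (complex V, the ATP synthase) and that had at least 50 UMIs over both libraries. The prefixes matched 88 of 27998 genes, and 84 passed the minimum, 45 in complex I, 8 in complex III, 15 in complex IV and 16 in complex V. Cox7b2, Cox6a2, Cox8c and Atp5g2, with 6, 43, 0 and 32 UMIs, did not pass. The 45 complex I members include 7 assembly factors named Ndufaf, which are not part of the finished enzyme. By GENCODE release M21 on GRCm38 the members lie on 19 chromosomes, and exons of 26 of them overlap exons of another gene.

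The data are 2 single-cell libraries of limb tendons from pups at postnatal day 7 (P7), 1 labelled wild type and 1 labelled mutant. In the mutant, the floxed Tgfbr2 gene, which encodes the TGFβ type II receptor, was deleted with ScxCre over a null allele (Tgfbr2 f/-;ScxCre), so the recombinase acts in cells that express the tendon transcription factor Scleraxis (Scx). Mice of the study carried the ScxGFP tendon reporter and the RosaT Cre reporter. The control is named wild type in its title and genotype but heterozygous in another label. Each library pooled the fore- and hindlimb tendon cells of 2 pups, so there is 1 library per genotype, no spread between replicates, and batch and genotype cannot be told apart. No test was run, and all intervals are exact 95% intervals that cover counting error only.

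Electrons from NADH enter the respiratory chain at complex I, pass through complex III and reach oxygen at complex IV, and the proton gradient they build drives complex V to make ATP. Most subunits are encoded in the nucleus, while a small catalytic set of complexes I, III, IV and V is encoded by mitochondrial DNA under mt- symbols. Several subunits of complex IV exist as pairs of genes, with a form found widely and a form known from muscle, lung or testis. Postnatal tendon is known as a tissue of sparse vessels and low oxygen use, whereas the mural cells of its vessels (pericytes and smooth muscle) and its immune cells have other demands on mitochondria.

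The library labelled wild type held 2364 cells and 9451606 UMIs (median 3866.5 per cell) and the library labelled mutant 2592 cells and 8250248 UMIs (median 2828). Cells were sorted by marker genes into immune-like, endothelial-like and mural-like cells, then into Scx-high cells (30 or more Scx UMIs per 10,000) and Scx-low fibroblast-like cells. In the order wild type and mutant these classes held 195 and 197, 22 and 30, 171 and 133, 1151 and 215, and 693 and 1810 cells. Markers, 5 per class, that the sorting did not use followed the names given. The tenocyte genes Fmod, Thbs4, Mkx, Col11a1 and Pdgfrl summed to 8928 and 6006 CPM (UMIs scaled to a per-million total) in Scx-high cells against 1114 and 1579 in Scx-low cells, and the fibroblast genes Pi16, Clec3b, Ly6a, Cd34 and Serping1 summed to 5491 and 3403 CPM in Scx-low cells against 224 and 323 in Scx-high cells. Scx counts include the reporter driven by the Scx locus, and 32 wild-type and 23 mutant cells lay between 20 and 30 Scx UMIs per 10,000, just under the threshold. Tgfbr2 itself was at 30.2 CPM in wild-type and 47.5 CPM in mutant Scx-high cells. Counts of 3′ ends do not show the loss of an upstream exon, so every direction below rests on the library labels. The libraries shared 2 cell barcodes.

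Of the mutant mural-like cells, 32 had none of the vascular mural genes Rgs5, Notch3, Kcnj8, Abcc9, Higd1b or Myh11 and had the muscle genes Acta1 (2924 CPM) and Myod1 (846 CPM), and 3 wild-type mural-like cells likewise had Acta1 at 167 CPM and Myod1 at 919 CPM. These cells go against the name, and mural-like values include them unless cells with a vascular marker are named. The module, Ndufa4l2 and Cox4i2 are given both ways.

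Mural-like cells gave the largest share of their UMIs to the module of 84 genes, 3.99% (3.95 to 4.03) in the wild-type and 3.95% (3.90 to 4.01) in the mutant library. Immune-like cells followed with 3.49% and 3.31%, and endothelial-like cells with 3.19% and 3.13%. Scx-high cells stood at 3.10% (3.09 to 3.12) and 2.90% (2.86 to 2.93), and Scx-low fibroblast-like cells were lowest of the 5 classes in both libraries, with 2.82% (2.80 to 2.84) and 2.76% (2.75 to 2.77). In the wild-type library the intervals of Scx-high and endothelial-like cells (3.08 to 3.31) overlapped, and the other neighbours in this order did not. In the mutant library those of Scx-high and endothelial-like cells (3.02 to 3.23) and of endothelial-like and immune-like cells (3.26 to 3.37) were separate. Haemoglobin-rich cells, which are red cells that lose their mitochondria as they mature, had 0.116% and 0.110%. Haemoglobin was at 955760 and 969082 CPM there, so these shares do not show the level of the module among their other RNA.

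**Figure D1:**
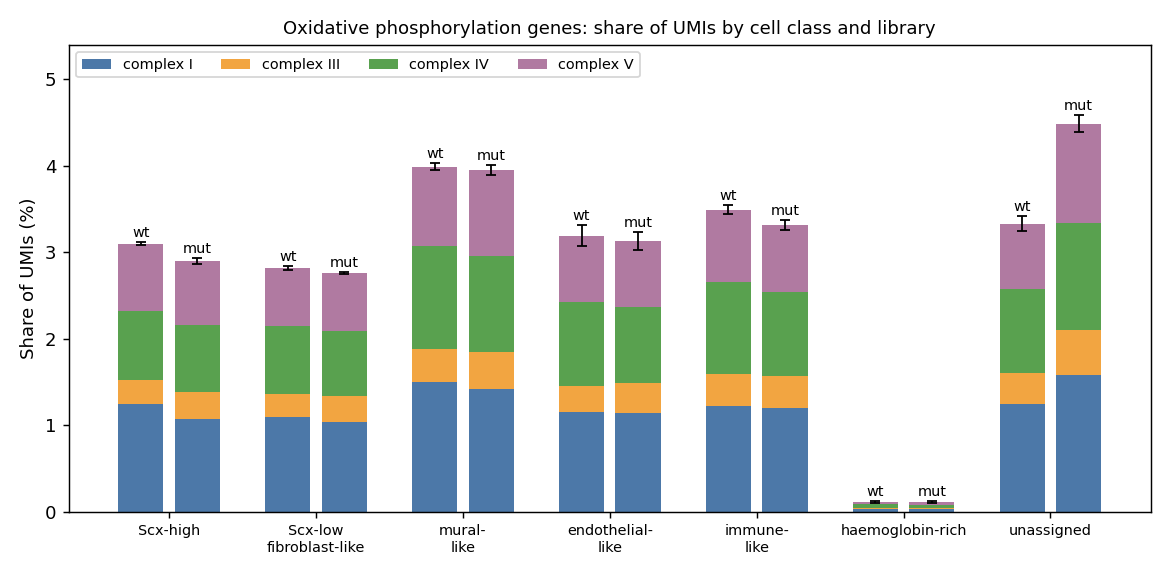
Share of UMIs (%, linear axis from 0) given to the nuclear oxidative phosphorylation genes, stacked by complex, in each cell class of the wild-type (wt) and mutant (mut) library; the black bars are exact 95% binomial intervals of the sum. Mural-like cells stand at 3.99% and 3.95% and Scx-low fibroblast-like cells at 2.82% and 2.76%. Haemoglobin-rich cells, where haemoglobin makes most of the total, stand near 0.

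The order held within single cells. The median cell gave 3.98% of its UMIs to the module among wild-type mural-like cells, 3.36% among immune-like cells, 3.08% among Scx-high cells and 2.75% among Scx-low cells, and 48.5% of the wild-type mural-like cells exceeded a share of 4%, against 22.1% of immune-like and 1.30% of Scx-low cells. Mutant mural-like cells with a vascular marker gave 3.67% (3.60 to 3.73) and the 32 without one 4.65% (4.54 to 4.77), so the level of vascular mural cells was lower in the mutant library than in the wild-type library (3.98%, 3.93 to 4.02). All 4 complexes shared in the difference between classes. Wild-type mural-like cells exceeded Scx-low cells 1.36-fold in complex I, 1.46-fold in complex III, 1.51-fold in complex IV and 1.37-fold in complex V. Of 79 members with at least 50 UMIs over both groups, 27 were at least 1.5-fold higher in mural-like than in Scx-low cells, where 13.6% of all genes were, and 1 was at least 1.5-fold lower, where 21.2% of all genes were. Cox8a, the widely expressed form of complex IV subunit 8, was at 1493 CPM against 802 CPM, and Atp5b, the catalytic β subunit of the ATP synthase, at 917 against 548 CPM.

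The mt-encoded genes, thinly counted here, had the same order as the nuclear module over mural-like, Scx-high and Scx-low cells. Endothelial-like cells gave them 0.677% (wild type) and 0.541% (mutant), and mutant mural-like cells with a vascular marker 0.584%. Immune-like cells gave them 0.587% (wild type) and 0.463% (mutant), the latter under the 0.475% of mutant Scx-high cells. The order of the module thus did not hold over all classes. Of 13 mt- genes, 6 had at least 50 UMIs over Scx-high cells of both libraries, and mt-Cytb, mt-Nd1 and mt-Nd4 carried most of them. Over all cells of both libraries mt-Co2, mt-Co3 and mt-Atp6 had 15, 19 and 20 UMIs, and mt-Nd4l and mt-Atp8 had 0. Their summed share was 0.612% in wild-type mural-like, 0.503% in Scx-high and 0.446% in Scx-low cells. The module held 6.17 UMIs for each mt-encoded UMI in wild-type Scx-high and 6.32 in Scx-low cells, and 6.09 and 6.65 in the mutant library. With so few mt- genes counted, this quotient does not give the balance of nuclear and mitochondrial transcripts.

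In Scx-high cells the module was slightly lower in the mutant than in the wild-type library, with a ratio of 0.934 (0.922 to 0.946). In Scx-low cells the ratio was 0.978 (0.970 to 0.987). The paper reports that most mutant tendon cells lost the ScxGFP signal and proposes that cells keeping it were newly recruited. Scx-high and Scx-low cells may therefore not be matched populations between the libraries, here and in the ratios of single genes below. The paper compared wild-type tenocytes with mutant cells that had lost tendon markers. The nearest classes here, wild-type Scx-high and mutant Scx-low cells, had module shares of 3.10% and 2.76%. The Scx-low classes also differed in other genes. The fibroblast markers summed to less in the mutant library (5491 and 3403 CPM), though Serping1 among them was higher there (495 and 764 CPM). The 8 proliferation genes summed to 412 and 255 CPM, and genes known to respond to tissue dissociation summed to 3242 and 5565 CPM. The part of these genes in the ratio was not tested. Complex I, sorted by symbol, accounted for most of the difference in Scx-high cells. It made 1.07% of UMIs in the mutant and 1.24% in the wild-type library (ratio 0.862, 0.844 to 0.880). That sum includes Ndufa4l2, at 847 CPM in wild-type and 124 CPM in mutant Scx-high cells, and was not taken without it. Complex III went the other way, with 0.315% against 0.277% (1.14, 1.09 to 1.18), and was higher in mutant Scx-low cells too (1.10, 1.07 to 1.13). Its log2 ratio in Scx-high cells, 0.19, lay under the 0.26 median of all genes, so its direction there depends on the scale. In Scx-low cells it was 0.14 against a median of -0.03. Complex IV (0.965) and complex V (0.944) were close to the wild-type share in Scx-high cells. The mt-encoded genes had ratios of 0.946 (0.917 to 0.976) in Scx-high and 0.930 (0.909 to 0.951) in Scx-low cells. Their ratios were lower in mural-like (0.873, 0.831 to 0.916), endothelial-like (0.798, 0.711 to 0.897) and immune-like cells (0.790, 0.745 to 0.837). The cytosolic ribosomal proteins were 1.14-fold higher in mutant Scx-high and 1.16-fold higher in mutant Scx-low cells. The same module ratio was 0.948 (0.927 to 0.970) in immune-like cells. It was 0.992 (0.974 to 1.01) in mural-like cells and 0.923 (0.903 to 0.942) in those with a vascular marker.

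The share varied with the depth of a cell by as much as it did between libraries. Over the shallow, middle and deep tertile of wild-type Scx-high cells the module was 2.94% (2.91 to 2.98), 3.12% and 3.14% (3.12 to 3.17), and over those of mutant Scx-high cells 3.02% (2.93 to 3.10), 2.92% and 2.85% (2.80 to 2.89). The mutant library was thus not lower in the shallow tertile, at median depths of 2202 (wild-type) and 2293.5 (mutant) UMIs, and was lower in the deep one, at 5805 and 7227 UMIs. In immune-like cells the shallow tertile was higher in the mutant library (3.79%, 3.65 to 3.93, against 3.17%, 3.06 to 3.29), while the middle and deep tertiles were lower (3.19% against 3.37% and 3.21% against 3.67%). Cycling cells, with at least 2 UMIs of 8 proliferation genes, had 3.14% in wild-type and 2.99% in mutant Scx-high cells, close to the 3.10% and 2.87% of the others. The proliferation genes summed to 304 CPM in wild-type and 653 CPM in mutant Scx-high cells, and their part in the module ratio was not tested.

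Among single genes of Scx-high cells the lowest mutant over wild-type ratios were those of a pair of members known from hypoxia and from vessel walls. In Scx-low cells Ndufs5, Cox4i2 and Cox6b2 had the lowest. Of 80 members tested in Scx-high cells, 4 were at least 1.5-fold higher in the mutant library, where 27.8% of all 7301 genes were, and 7 were at least 1.5-fold lower, where 11.4% were. The median log2 ratio was 0.06 over the members and 0.26 over all genes, and after division by the latter no member was higher and 16 were lower. In Scx-low cells 2 of 83 members were higher (9.44% of all genes) and 7 were lower (11.2%), with a median log2 ratio of -0.05 over members and -0.03 over all genes.

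**Figure D2:**
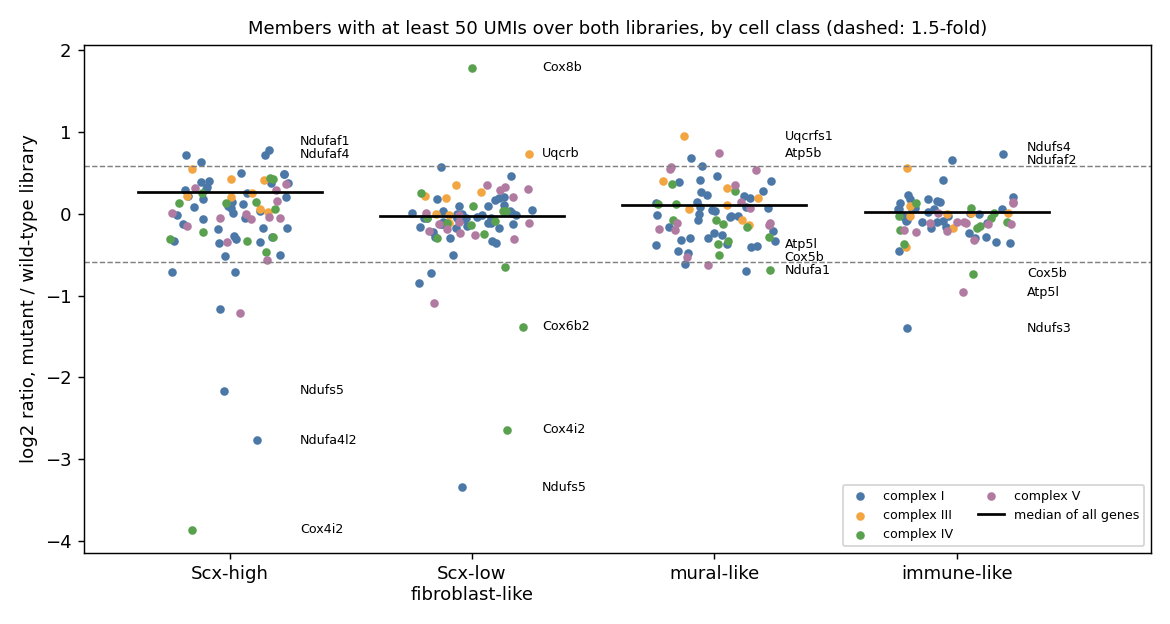
Log2 ratio of mutant over wild-type CPM (y axis) for each member with at least 50 UMIs over both libraries, in 4 cell classes, coloured by complex; black lines are the median of all genes in that class, dashed lines mark 1.5-fold, and the names belong to the 3 lowest and 2 highest members. Cox4i2 and Ndufa4l2 sit lowest in Scx-high cells, at -3.86 and -2.77, followed by Ndufs5 at -2.17.

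Ndufa4l2 (ENSMUSG00000040280, chr10:127514967-127517154 of GRCm38) encodes a paralogue of the subunit NDUFA4 and is known to be induced in low oxygen and to restrain complex I. Wild-type Scx-high cells held 4064 UMIs of it, 847 CPM, and mutant Scx-high cells 123 UMIs, 124 CPM. The ratio was 0.147 (0.122 to 0.176). Scx-low cells had 264 and 186 CPM (0.705, 0.640 to 0.778), so in the mutant library Scx-high cells lay under Scx-low cells. Mural-like cells had 1021 and 786 CPM, but 1037 and 1098 CPM when only cells with a vascular marker were counted (1.06, 0.933 to 1.20). Immune-like cells had 57.3 and 37.97 CPM, and haemoglobin-rich cells 8.17 CPM and 0 UMIs. In these immune-like cells the tendon transcript Scx was at 1654 and 81.0 CPM, against 25663 and 28779 CPM in Scx-high cells, so tendon RNA was present there. Mural-like cells had more Scx, 1922 and 3420 CPM. The part of tendon RNA in the levels of either class was not tested. The 22 wild-type endothelial-like cells had 11.8 CPM (1 UMI) and the 30 mutant cells 188 CPM. The exons of Ndufa4l2 overlap those of Shmt2 on the opposite strand. No other annotated transcript matched its last 400 bases at 97% identity over at least 98 bases.

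Ndufa4l2 followed Scx in the wild-type library and not in the mutant library. Along 6 bins of Scx, from cells with 0 to cells with 200 or more UMIs per 10,000, wild-type cells had 219, 268, 352, 705, 928 and 830 CPM. Mutant cells had 188, 201, 95.7, 182, 164 and 78.3 CPM in the same bins, so the highest Scx bin of the mutant was its lowest for Ndufa4l2. Scx was at 25663 and 28779 CPM in wild-type and mutant Scx-high cells, but the class was set by Scx, and these counts include the reporter. Cells in cycle had less Ndufa4l2, 469 against 886 CPM in wild-type Scx-high and 58.2 against 142 CPM in mutant Scx-high cells. Without Ndufa4l2 the module ratio in Scx-high cells was 0.956 in place of 0.934.

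**Figure D3:**
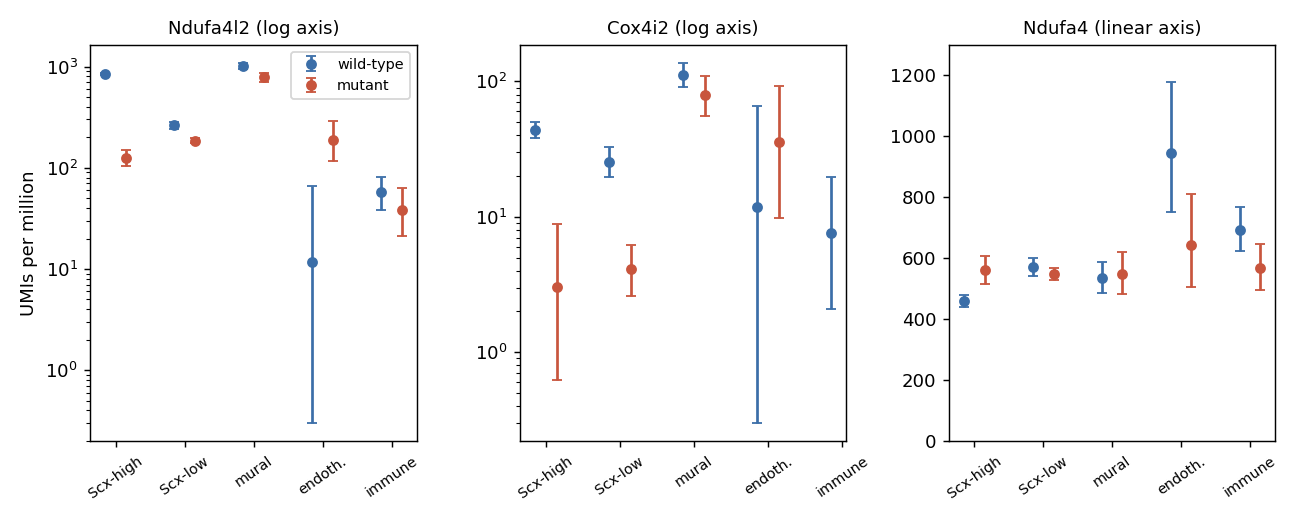
CPM of Ndufa4l2 and Cox4i2 (log axes) and of Ndufa4 (linear axis) in 5 cell classes of the wild-type and mutant library, with exact 95% Poisson intervals. Ndufa4l2 is at 847 CPM in wild-type and 124 CPM in mutant Scx-high cells while Ndufa4 is at 460 and 560 CPM; mutant immune-like cells had no Cox4i2 UMI and have no point.

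**Figure D4:**
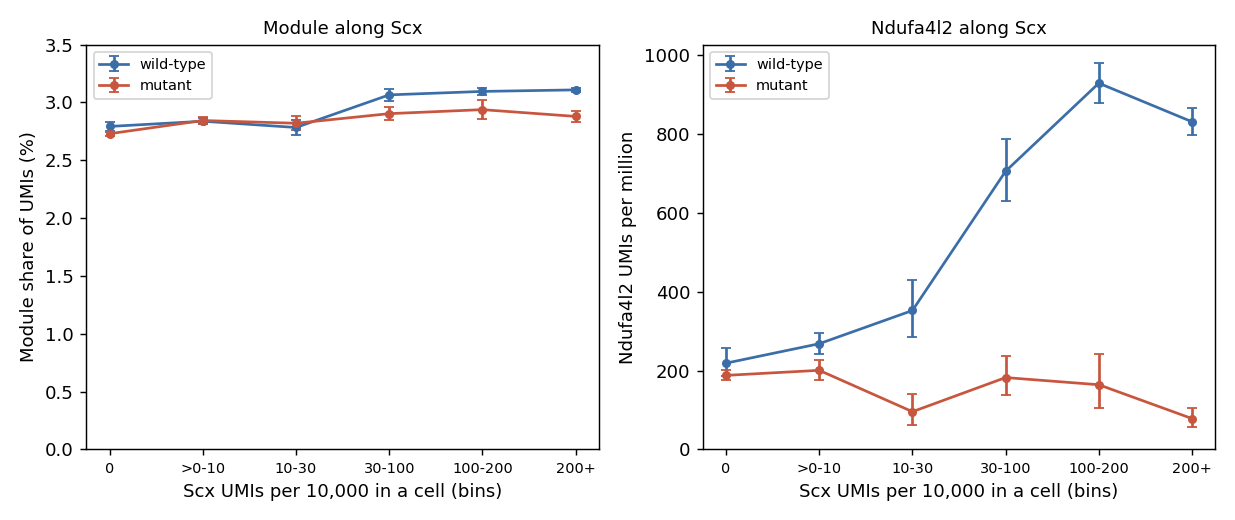
Module share of UMIs (left) and Ndufa4l2 CPM (right), both from 0, over cells binned by Scx UMIs per 10,000, for Scx-high and Scx-low cells of each library, with 95% intervals of counting error. The module stays between 2.73% and 3.11% in all bins, whereas Ndufa4l2 reaches 928 CPM in the wild-type library and stays at or under 201 CPM in the mutant library.

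Cox4i2 (ENSMUSG00000009876, chr2:152754173-152765037 of GRCm38), the form of complex IV subunit 4 known from lung and from pericytes, differed in the same direction. Scx-high cells had 44.0 CPM (211 UMIs) in the wild-type and 3.03 CPM (3 UMIs) in the mutant library, a ratio of 0.069 (0.014 to 0.204). Scx-low cells had 25.6 and 4.10 CPM (0.160, 0.095 to 0.261). In the wild-type library 51 of the 65 UMIs of Scx-low cells lay in the 146 cells with Tnmd, a marker of mature tenocytes, where Cox4i2 was at 113 CPM against 6.70 CPM in the other 547 cells. The 422 mutant Scx-low cells with Tnmd had 2.95 CPM. Along the 6 bins of Scx, wild-type cells had 30.2, 17.9, 57.5, 93.6, 43.7 and 36.3 CPM of Cox4i2. The highest level was thus at 30 to 100 Scx UMIs per 10,000 and not in the highest bins. Mural-like cells had 112 and 78.9 CPM, and 114 and 111 CPM with a vascular marker. Its widely expressed partner Cox4i1, the member of complex IV with most UMIs, was at 1526 and 1673 CPM in Scx-high cells (1.10, 1.04 to 1.16). Ndufa4, the counterpart of Ndufa4l2 and a protein of complex IV despite its symbol, was at 460 and 560 CPM (1.22, 1.11 to 1.34). In Scx-high cells neither widely expressed partner was thus lower in its share of UMIs in the mutant library. The ratio of Cox4i1 was, however, under the median of all genes there (log2 ratio 0.26). In Scx-low cells Ndufa4 was at 570 and 548 CPM (0.961, 0.903 to 1.02) and in immune-like cells at 691 and 567 CPM (0.820, 0.691 to 0.972).

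Of the other complex I members, Ndufa13 and Ndufa1 were lower in mutant Scx-high cells without being lower past 1.5-fold in Scx-low cells. Ndufa13 (GRIM-19), an accessory subunit and the complex I member with most UMIs, was at 1330 CPM in the wild-type and 813 CPM in the mutant library (0.611, 0.567 to 0.658) in Scx-high cells, and at 790 and 766 CPM in Scx-low cells. Ndufa1, a small accessory subunit of the membrane arm, was at 480 and 293 CPM (0.611, 0.539 to 0.690) in Scx-high and 266 and 217 CPM in Scx-low cells. Ndufa1 was also lower in mural-like cells (437 and 269 CPM). In the other direction, Scx-high cells of the mutant library had more of Ndufa10, an accessory subunit (104 and 171 CPM, 1.64, 1.37 to 1.96), Ndufv1, the subunit that binds NADH (78.6 and 121 CPM, 1.54, 1.25 to 1.90), and the assembly factor Ndufaf4 (24.6 and 40.4 CPM, 1.64, 1.12 to 2.37). Ndufaf1, another assembly factor, was also higher, with an interval that holds 1 (1.72, 0.926 to 3.04). Ndufs8, a core subunit with iron-sulfur clusters, was at 126 and 178 CPM (1.41, 1.18 to 1.67). In Scx-low cells the highest complex I members were Ndufs1, the largest core subunit, at 21.3 and 31.5 CPM (1.48, 1.09 to 2.05), and Ndufaf1 at 15.3 and 21.2 CPM (1.38, 0.955 to 2.04), while the assembly factor Ndufaf5 was at 16.5 and 9.98 CPM (0.604, 0.397 to 0.923).

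Atp5l, Ndufs3, Cox5b and Ndufs5 were among the members with ratios under 1 in each of 4 classes, cells of blood lineage included. Atp5l, subunit g of the ATP synthase membrane part, was at 67.8 and 29.3 CPM in Scx-high (0.433), 70.5 and 33.0 CPM in Scx-low (0.468), 98.5 and 63.5 CPM in mural-like (0.645) and 118 and 60.8 CPM in immune-like cells (0.513). It was the single member of 69 past 1.5-fold lower in all 4 classes, as 1.44% of genes were, and no member was higher in all 4, as 0.577% of genes were. Ndufs3, a core subunit of complex I, had ratios of 0.447 in Scx-high, 0.558 in Scx-low and 0.379 in immune-like cells. Cox5b, a complex IV subunit, had ratios of 0.636 in Scx-low, 0.623 in mural-like and 0.602 in immune-like cells, and Ndufs5, an accessory subunit of complex I, was at 18.1 and 1.78 CPM in Scx-low and 18.1 and 4.04 CPM (4 UMIs) in Scx-high cells. The last 400 bases of 23 of the 84 members match another annotated gene at 97% identity or more over at least 98 bases, and Atp5l (7 such genes), Ndufs3, Cox5b and Ndufs5 are among them. Both strands were searched, and not every match is a copy. For Ndufb6, Ndufb2, Uqcrc2, Atp5j and Cox5a a matching gene is one whose exons overlap theirs on the opposite strand. Cell Ranger counts a read only where it is assigned to 1 gene, so the levels of Atp5l, Ndufs3, Cox5b and Ndufs5 are uncertain. Gapdh, a glycolysis gene with 76 such matches, was at 193 and 37.4 CPM in Scx-high and 344 and 53.2 CPM in immune-like cells. In immune-like cells all 3 members past 1.5-fold lower had a match, and in Scx-high cells 3 of 7 did. In Scx-low cells 4 of 7 had a match, and in mural-like cells 2 of 4. The median log2 ratio in Scx-high cells was 0.06 both for members with and for members without a match. The part of these matches in the ratios was not tested. Ndufa4l2, Cox4i2, Ndufa1 and Ndufa13 have none. Cox6a1, Cox7a2, Cox8a and Atp5e have none either and were also lower in the mutant library in each of the 4 classes. Cox6a1, for example, was at 1474 and 1137 CPM in mural-like and 1066 and 932 CPM in immune-like cells. Members with ratios under 1 in all 4 classes were not counted, with or without a match, so these examples do not give their share.

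In complex III, Uqcrb, a small matrix-side subunit, was the member with the highest ratio in Scx-low cells (84.2 and 140 CPM, 1.66, 1.43 to 1.94) and was at 93.8 and 138 CPM in Scx-high cells (1.47, 1.20 to 1.78). It has 3 near-identical pseudogenes. Uqcrh, the hinge protein and the complex III member with most UMIs, was at 675 and 777 CPM in Scx-high (1.15, 1.06 to 1.24) and 653 and 830 CPM in Scx-low cells (1.27, 1.20 to 1.34). In complex V, Atp5a1, the α subunit of the catalytic head, was at 365 and 467 CPM in Scx-low (1.28, 1.19 to 1.38) and 363 and 444 CPM in Scx-high cells. Atp5e, the ε subunit and the complex V member with most UMIs, was at 1336 and 899 CPM in Scx-high cells (0.673, 0.627 to 0.722) and 795 and 687 CPM in Scx-low cells. The genes of the proton-carrying c ring, Atp5g1 (714 and 717 CPM) and Atp5g3 (169 in both libraries), differed little in Scx-high cells.

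Some complex IV subunits have forms known from muscle or testis beside a widely expressed partner. Cox8b, known from heart and skeletal muscle, had 10 UMIs in wild-type and 76 in mutant Scx-low cells (3.94 and 13.5 CPM, 3.44, 1.77 to 7.46), and 25.2 and 26.3 CPM in Scx-high cells. Its partner Cox8a was at 897 and 768 CPM in Scx-high and 802 and 742 CPM in Scx-low cells. Cox6b2, known from testis, was at 51.6 and 19.8 CPM in Scx-low cells (0.384, 0.295 to 0.498), while Cox6b1 was at 701 and 657 CPM. Cox7a1, the heart and muscle form of subunit 7a, had 19 and 7 UMIs in Scx-low and 7 and 2 in Scx-high cells, under the minimum of 50. Cox7a2 was at 532 and 432 CPM in Scx-low and 650 and 526 CPM in Scx-high cells, and Cox6a1 at 1151 and 946 CPM in Scx-high cells. Acta1, Ckm and Tnnt3, genes of muscle fibres, summed to at most 11.8 CPM in the Scx-high and Scx-low cells of either library. Cells with at least 2 genes and 10 UMIs per 10,000 of a muscle list, which holds these genes and Myod1, were set apart before. A low sum was thus largely fixed by the sorting. Cox8b was also at 24.1 CPM (11 UMIs) in mutant mural-like and 27.0 CPM (9 UMIs) in mutant haemoglobin-rich cells. Both classes of the wild-type library had 0 UMIs of it. The muscle gene Myod1 had 6 UMIs in cycling and 12 in other mutant Scx-high cells, and 0 in wild-type Scx-high cells. In mutant Scx-low cells it had 1 UMI in cycling and 0 in other cells.

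Scx-high and Scx-low cells were then compared within each library, where no difference between libraries enters. The module was 1.10-fold higher in Scx-high cells of the wild-type library (1.09 to 1.11) and 1.05-fold higher in those of the mutant library (1.04 to 1.06). Complex V led in both, at 1.17-fold and 1.11-fold, and complex IV was nearly equal, at 1.02-fold and 1.01-fold. Of 82 members in the wild-type library, 7 were at least 1.5-fold higher in Scx-high cells, where 9.6% of all genes were, and 7 were at least 1.5-fold lower, where 38.3% of all genes were. The median log2 ratio was 0.003 over the members and -0.42 over all genes. After division by the median of all genes 27 members were higher and 2 lower. In the mutant library 2 of 80 members were higher (11.5% of all genes) and 3 were lower (22.1%), the medians were 0.03 and -0.12, and the division gave 3 higher and 2 lower.

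**Figure D5:**
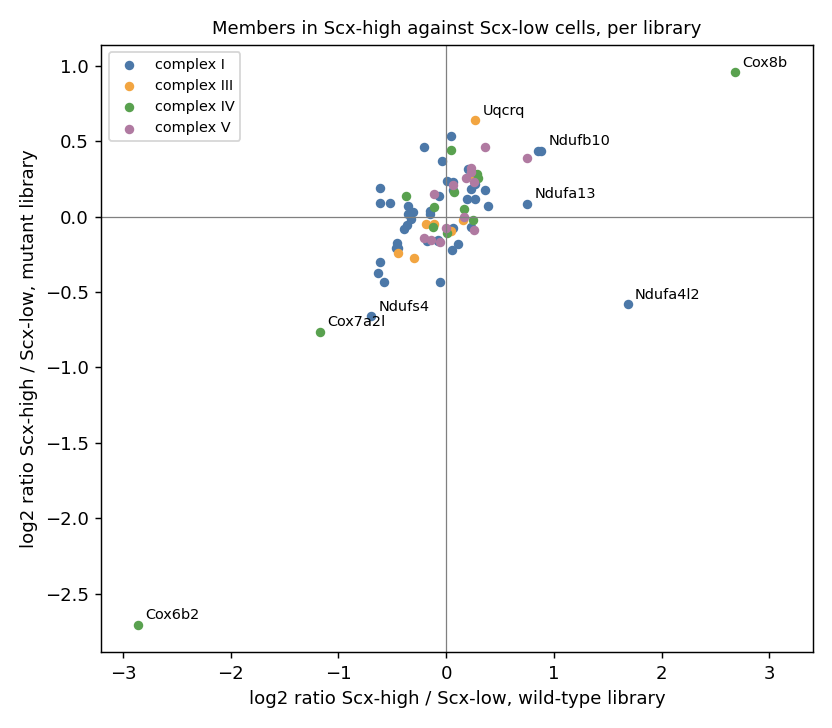
Log2 ratio of Scx-high over Scx-low cells for each member with at least 50 UMIs in that comparison, in the wild-type library (x axis) and the mutant library (y axis), coloured by complex. Cox6b2 and Cox7a2l are low and Cox8b high on both axes, and Ndufa4l2 lies at 1.68 on the x axis and -0.58 on the y axis.

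In the wild-type library the members higher in Scx-high cells were Cox8b (25.2 against 3.94 CPM, 6.41-fold, 3.37 to 13.7), Ndufa4l2 (847 against 264 CPM, 3.21-fold, 2.96 to 3.49), Ndufb10 (624 against 338 CPM, 1.85-fold), Ndufa1 (480 against 266 CPM, 1.81-fold), Cox4i2 (44.0 against 25.6 CPM, 1.72-fold), Ndufa13 (1.69-fold) and Atp5e (1.68-fold). Ndufb10, Ndufa1 and Ndufa13 are accessory subunits of complex I. In the mutant library the same genes had ratios of 1.94 (Cox8b), 0.669 (Ndufa4l2), 1.35 (Ndufb10), 1.35 (Ndufa1), 1.06 (Ndufa13) and 1.31 (Atp5e), and Cox4i2 had 3 UMIs in Scx-high and 23 in Scx-low cells, too few for the minimum. Uqcrq, a subunit of complex III, was the other member past 1.5-fold in the mutant library (632 against 406 CPM, 1.56-fold, 1.42 to 1.70), and it was at 531 against 440 CPM in the wild-type library. Next in the mutant library came Ndufb4, an accessory subunit of complex I (327 against 226 CPM, 1.45-fold), Atp5g1 (1.38-fold) and Ndufs8 (1.38-fold), whose wild-type ratios were 1.03, 1.28 and 0.868.

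Lower in Scx-high cells of both libraries were Cox6b2, Cox7a2l and Ndufs4. Cox7a2l, known to join complexes III and IV into supercomplexes, was at 182 against 411 CPM in the wild-type (0.444, 0.405 to 0.486) and at 247 against 419 CPM in the mutant library (0.589, 0.514 to 0.672). Its level in Scx-high cells was 1.35-fold higher in the mutant library (1.17 to 1.56), and that in Scx-low cells was 1.02-fold. Cox6b2 was at 7.09 against 51.6 CPM (0.137) and, with 3 UMIs in Scx-high cells, at 3.03 against 19.8 CPM (0.153, 0.031 to 0.460). Ndufs4, an accessory subunit needed for a stable complex I, was at 109 against 178 CPM (0.617) and at 100.1 against 158 CPM (0.633). Next lowest in the mutant library were Ndufa4l2 (0.669) and then Ndufa6, an accessory subunit, at 274 against 370.4 CPM (0.740). The assembly factors Ndufaf2 (0.643), Ndufaf4 (0.651) and Ndufaf1 (0.652) and the subunit Ndufv1 (0.653) were past 1.5-fold lower in the wild-type library alone, with ratios of 0.770, 1.07, 0.811 and 1.14 in the mutant library. The difference between the libraries in these ratios was not tested.

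The sequence before the transcription start is shown for 4 members named above, because they stand for opposite patterns, Cox8b (the highest ratio of wild-type Scx-high over Scx-low cells), Cox7a2l (low in Scx-high cells of both libraries), Ndufaf4 (low in wild-type Scx-high cells) and Atp5l (lower in the mutant library in 4 classes). Each is the 250 bases before the RefSeq start on GRCm38.p6, written 5′ to 3′ on the strand of the gene, at chr7:140900447-140900696 (Cox8b, minus strand), chr17:83514334-83514583 (Cox7a2l, minus strand), chr4:24897833-24898082 (Ndufaf4, plus strand), chr9:44920743-44920992 (Atp5l, minus strand). Capitals mark letters of 5 searched motifs on either strand, the NRF1 core GCGCANGCG, the ETS core CCGGAAG bound by GABPA, the YY1 word AAGATGGCG, the SP1 box GGGCGG and the TATA box TATAAA.
Cox8b: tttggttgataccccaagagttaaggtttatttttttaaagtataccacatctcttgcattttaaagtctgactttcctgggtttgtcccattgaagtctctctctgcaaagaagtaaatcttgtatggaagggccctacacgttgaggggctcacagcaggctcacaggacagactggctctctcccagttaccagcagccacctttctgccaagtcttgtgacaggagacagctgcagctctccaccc
Cox7a2l: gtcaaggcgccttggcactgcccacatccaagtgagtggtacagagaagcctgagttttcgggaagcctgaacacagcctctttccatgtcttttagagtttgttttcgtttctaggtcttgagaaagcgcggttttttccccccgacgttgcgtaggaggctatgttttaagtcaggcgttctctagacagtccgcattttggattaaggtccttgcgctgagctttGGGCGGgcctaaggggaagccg
Ndufaf4: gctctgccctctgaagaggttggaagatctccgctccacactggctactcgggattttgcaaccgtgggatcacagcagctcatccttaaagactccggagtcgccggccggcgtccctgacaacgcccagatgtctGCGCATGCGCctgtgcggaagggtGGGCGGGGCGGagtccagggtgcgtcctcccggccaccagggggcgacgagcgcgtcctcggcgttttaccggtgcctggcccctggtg
Atp5l: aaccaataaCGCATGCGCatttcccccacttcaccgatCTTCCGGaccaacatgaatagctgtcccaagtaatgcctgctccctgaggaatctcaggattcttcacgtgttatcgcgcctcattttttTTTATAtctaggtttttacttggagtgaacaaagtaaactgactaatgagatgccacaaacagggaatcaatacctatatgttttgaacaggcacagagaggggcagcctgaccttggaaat
None of the 5 motifs lies wholly within the 250 bases of Cox8b, while its window up to 50 bases after the start holds a TATA box. Cox7a2l had 1 SP1 box, 22 bases before the start. Ndufaf4 had an NRF1 core on both strands, read from 113 and 112 bases before the start, and 2 overlapping SP1 boxes. Atp5l had an NRF1 core 241 bases, an ETS core 212 bases and a TATA box 122 bases before the start, and 9 of its bases lie in an exon of Gm30934.

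RefSeq windows of 250 bases before to 50 after the start were found for 68 of the 84 members. The NRF1 core was in windows of 19 of these 68 genes (27.9%) against 7.03% of all genes with a window, the ETS core in 15 (22.1% against 9.93%) and the YY1 word in 7 (10.3% against 1.64%). The SP1 box was in 28 (41.2% against 38.2%) and the TATA box in 6 (8.82% against 15.7%). The windows of members had a median GC content of 57.3%, against 52.7% over all windows. A match of letters is a description of the sequence and not a bound site. Members without a window, which were not searched for motifs, included Ndufs1, Cox4i2, Atp5f1, Ndufaf6, Atp5sl, Uqcrc2, Ndufa4l2, Cox4i1, Uqcrq, Uqcrb, Atp5s, Cox6c, Ndufb9, Ndufa2 and Atp5a1.

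In mural-like cells 3 of 75 members were at least 1.5-fold higher in the mutant library (15.9% of all genes) and 4 were lower (10.5%). The higher ones were Uqcrfs1, the Rieske iron-sulfur protein of complex III (215 and 414 CPM), Atp5b (917 and 1529 CPM) and Ndufa10 (178 and 287 CPM), in a class that held the muscle-gene cells of the mutant library. The lower ones were Ndufa1, Cox5b, Atp5l and the assembly factor Ndufaf3. The median log2 ratio of all genes in this class was 0.11. In immune-like cells 2 of 69 members were higher (10.1% of all genes), Ndufs4 (101 and 167 CPM) and Ndufaf2, and 3 were lower (10.9%), Ndufs3, Atp5l and Cox5b.

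Other genes of mitochondrial energy metabolism were set beside the module in Scx-high cells. Of 12 genes of the TCA cycle, which supplies NADH to complex I, 5 were at least 1.5-fold higher in the mutant library and none lower, with citrate synthase Cs at 31.5 and 55.6 CPM and Idh3a at 44.8 and 80.9 CPM. Of 6 carriers of the inner and outer membrane 3 were higher, with the ADP/ATP carrier Slc25a5 at 460 and 814 CPM. Of 71 mitochondrial ribosomal protein genes 12 were higher and 3 lower, where 27.8% of all genes were higher and 11.4% lower. None of the 4 complex II genes passed 1.5-fold. The median log2 ratios were 0.55 for the TCA cycle, 0.60 for the carriers and 0.36 for the mitochondrial ribosome, beside 0.26 for all genes and 0.06 for the members. In Scx-low cells the same lists had 1 of 12, 0 of 6 and 2 of 74 genes higher, beside 9.44% of all genes. The regulators Ppargc1a and Ppargc1b, known as activators of mitochondrial genes, had 23 and 4 UMIs in wild-type and 3 and 2 in mutant Scx-high cells, too few to compare.

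Ndufa4l2 was also set beside other genes known to be induced in low oxygen. Of 7 such genes 4 had at least 50 UMIs in Scx-high cells, and all 7 summed to 367 CPM in the wild-type and 102 CPM in the mutant library. Past 1.5-fold lower were Car9, a carbonic anhydrase that made nearly all of that difference (284 and 14.2 CPM, 0.050, 0.027 to 0.084), and Adm, which encodes adrenomedullin (18.3 and 9.10 CPM, 0.496, 0.220 to 0.985). Bnip3 was at 38.6 and 43.5 CPM, and Ndrg1 was at 12.7 and 23.3 CPM (1.83, 1.08 to 2.998). Of 13 glycolysis genes 1 was at least 1.5-fold higher, where 27.8% of all genes were, and 3 were lower, where 11.4% were. All 14 genes of that list summed to 2987 and 2575 CPM (0.862, 0.826 to 0.899). The lower ones were Gapdh, Eno1 (91.3 and 29.3 CPM) and Pgk1 (68 and 1 UMIs), while Ldha was at 811 and 845 CPM and Aldoa at 669 and 614 CPM.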

How the data were processed

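The deposited UMI counts came from Cell Ranger (2.0 in the authors' methods, 1.2.0 in the submitters' processing notes), run on 3′ libraries of the 10x Genomics platform with mm10 as the genome. Counts per gene and cell are whole numbers without normalization. All barcodes were used, with 903 to 15968 UMIs per cell. The members, lists and cell classes were chosen with earlier results of these data known. Haemoglobin-rich cells had over 50% haemoglobin UMIs. Immune-, endothelial- and mural-like cells had at least 10 UMIs per 10,000 on at least 2 markers of that list. Other cells with at least 10 UMIs per 10,000 on at least 2 genes of a Schwann, muscle, epithelial or mast cell list were set apart. The remaining cells were Scx-high at 30 Scx UMIs per 10,000, or Scx-low fibroblast-like at 100 per 10,000 on 9 fibroblast markers. Each class was summed to 1 profile per library and scaled to CPM, and the ratio of 2 sums has an exact conditional 95% interval. The interval was checked only on simulated Poisson counts, which hold no differences between cells. A gene needed 50 UMIs over both groups, and 1.5-fold is a rule of size in place of a test. Levels of single genes were compared within a gene only, and the quotient of module over mt-encoded UMIs is a description. Named members were the 5 highest and 5 lowest ratios of each comparison with at least 100 UMIs, the isoform pairs and the top member of each complex; others past 1.5-fold were named after their values were seen. Scrublet marked 26 cells of the wild-type (1.10%) and 8 of the mutant library (0.309%), and none was removed. Near-identical matches were sought with blastn on both strands in GENCODE M21 transcripts. Python 3.11.15, NumPy 2.4.6, SciPy 1.17.1, scanpy 1.11.5 and matplotlib 3.10.9 were used. Alternatives were other denominators, the median of all genes as scale, means over cells, filters on cells, doublets and counts, other Scx and marker thresholds, other member lists and a 2-fold limit.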

Additional observations from a re-analysis of the deposited data

Results flagged for a closer look

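Cells outside the 5 classes were in no comparison. The 7 wild-type and 70 mutant cells set apart by Schwann, muscle, epithelial or mast cell lists gave 4.30% and 3.43% of their UMIs to the module. The 58 mutant cells left without a class gave 4.49% (4.39 to 4.58) of their UMIs to the module, above the 3.33% (3.25 to 3.41) of the 37 such wild-type cells and above every class of either library. The ratio of Scx-high over Scx-low cells for Ndufa4l2 was 3.21 (2.96 to 3.49) in the wild-type library and 0.669 (0.550 to 0.807) in the mutant library, on opposite sides of 1. The difference was not tested, since there is 1 library per genotype. Cox6b1 (0.772 and 1.10) and Ndufs8 (0.868 and 1.38) also lay on opposite sides of 1 with intervals clear of it, though within 1.5-fold.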

How the results depend on the processing

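No paired analysis was possible because there is 1 library per genotype. Depth limits the rare members, and the mutant Scx-high class rests on 215 cells of 2 pups. The alternatives were run on 4 module ratios, and 1 on that of mural-like cells, but not on the sums of single complexes. None changed side of 1, though Scx-low after division has an interval that holds 1, and the cause of each shift below was not tested. In Scx-high cells the mutant over wild-type module ratio of 0.934 became 0.810 without the 20 most abundant genes in the total, 0.778 after division by the median of all genes and 0.959 as a mean over cells. It was 0.954 with structural subunits only, 0.915 without the 23 members with a match to another gene and 0.956 without Ndufa4l2. The last 2 were added after seeing the data, as was the count of mural-like cells with a vascular marker. In Scx-low cells the ratio of 0.978 became 0.998 (0.989 to 1.01) after division by the median. The Scx-high over Scx-low ratio of the wild-type library, 1.10, became 1.33 without the 20 genes, 1.47 after the division, 1.08 with structural subunits and 1.08 without Ndufa4l2. The list of structural subunits leaves out Ndufa4l2 too, so these 2 settings are not separate. That of the mutant library, 1.05, became 1.11 without the 20 genes, 1.14 after the division, 1.08 as a mean over cells and 1.03 without members with a match. Filters on cells and doublets, Scx thresholds of 15 and 60 and stricter marker gates kept the 4 module ratios within their intervals. The count of 11 members past 1.5-fold in Scx-high cells became 5 at 2-fold. The 9 of Scx-low cells became 5 with at least 200 UMIs and 5 at 2-fold. The 14 of the wild-type Scx-high over Scx-low comparison became 29 after the division and 4 at 2-fold, and the 5 of the mutant one 3 with at least 200 UMIs, 9 with 1 UMI in each group and 1 at 2-fold. Of 320 values for 40 named ratios under 8 settings, 301 stayed within their interval, 19 moved and no value past 1.5-fold changed side of 1.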
